A study of Mus musculus with 24 samples.

Results

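The Runx and Ebf genes encode 2 families of transcription factors, and all 6 members analysed here, Runx1, Runx2, Runx3, Ebf1, Ebf2 and Ebf3, were chosen by name, out of 21883 protein-coding genes in the gene table. Each was described by the length, in kb, that ChIP-seq peaks covered in its window, taken as the gene from end to end plus 10 kb at either side. These covered lengths were known when the genes were chosen, so they are given as a description, with no test.

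The data are peak lists from 4 mouse small cell lung cancer lines, grown at early passage and collected 24 h after plating. The mutant lines, 236L and 236R, came from sgKdm6a RPP tumours, and the control lines, 159-1 and 1014, from sgControl RPP tumours. RPP denotes a mouse model in which the tumour suppressors Rb1, Trp53 and Rbl2 are deleted, so all 4 lines carry those deletions and differ by the guide RNA. H3K4me1, H3K4me2 and H3K27me3 were mapped in each of the 4 lines, and KDM6A, after an added crosslink with 2 mM disuccinimidyl glutarate, in the control lines alone. Each group is thus a pair of cultured lines, the labels do not say whether 236L and 236R came from separate animals, and values measure the spread between these lines. The 2 control lists of H3K4me2 carry, in their deposited names, the name of the other control line. The sample labels are followed for this mark, and swapping the 2 lists would leave both groups as they are.

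RUNX proteins bind DNA through the Runt domain as dimers with CBFB and are known as lineage regulators: RUNX1 of blood stem cells, RUNX2 of bone and RUNX3 of cytotoxic T cells and of a class of sensory neurons. Each Runx gene is known to use a distal and a proximal promoter. EBF proteins form another family of DNA-binding factors, in which EBF1 specifies B cells, EBF2 acts in brown fat and in neurons, and EBF3 acts in neurons. H3K4me1 and H3K4me2 mark enhancers and promoters, H3K27me3 is the repressive mark of the Polycomb complex PRC2, and KDM6A removes methyl groups from H3K27 and belongs to complexes that methylate H3K4.

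The promoters are shown first, because the marks described below differ between the distal and proximal starts of the Runx genes and between the starts of the Ebf genes. Each sequence is 300 bases from the RefSeq promoter table (GRCm38.p6, the assembly of mm10), read 5′ to 3′ on the gene's strand. Capitals mark the RUNX core motif TGTGGT or its reverse complement ACCACA.
Runx1 distal start: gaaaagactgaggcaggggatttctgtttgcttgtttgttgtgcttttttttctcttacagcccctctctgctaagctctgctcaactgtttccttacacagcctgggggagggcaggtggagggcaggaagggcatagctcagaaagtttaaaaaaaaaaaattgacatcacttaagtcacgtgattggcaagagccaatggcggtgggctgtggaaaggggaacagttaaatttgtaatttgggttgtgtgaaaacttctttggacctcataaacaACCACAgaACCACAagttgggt
Runx2 distal start: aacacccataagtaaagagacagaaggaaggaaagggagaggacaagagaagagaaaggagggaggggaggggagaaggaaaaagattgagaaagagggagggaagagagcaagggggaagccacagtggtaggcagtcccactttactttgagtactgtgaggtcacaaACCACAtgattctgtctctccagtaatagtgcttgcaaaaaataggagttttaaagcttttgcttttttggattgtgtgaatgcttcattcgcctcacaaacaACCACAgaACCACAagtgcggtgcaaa
Runx3 distal start: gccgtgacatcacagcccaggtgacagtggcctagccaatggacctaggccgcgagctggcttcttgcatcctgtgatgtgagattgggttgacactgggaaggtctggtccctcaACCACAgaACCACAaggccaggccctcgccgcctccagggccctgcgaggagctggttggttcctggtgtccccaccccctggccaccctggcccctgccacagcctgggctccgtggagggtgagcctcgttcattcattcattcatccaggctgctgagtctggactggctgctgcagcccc
Runx1 proximal start: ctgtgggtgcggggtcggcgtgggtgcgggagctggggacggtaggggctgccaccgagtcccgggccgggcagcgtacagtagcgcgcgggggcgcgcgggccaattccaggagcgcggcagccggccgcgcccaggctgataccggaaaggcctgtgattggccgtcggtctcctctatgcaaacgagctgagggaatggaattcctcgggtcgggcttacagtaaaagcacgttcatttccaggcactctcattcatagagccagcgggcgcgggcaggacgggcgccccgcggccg
Ebf1 first start: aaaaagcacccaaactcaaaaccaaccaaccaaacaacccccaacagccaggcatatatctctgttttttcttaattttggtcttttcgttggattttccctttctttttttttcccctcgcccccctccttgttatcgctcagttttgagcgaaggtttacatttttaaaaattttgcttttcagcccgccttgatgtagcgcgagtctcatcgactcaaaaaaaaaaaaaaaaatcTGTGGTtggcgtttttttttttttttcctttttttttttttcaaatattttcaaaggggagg
Ebf3 start: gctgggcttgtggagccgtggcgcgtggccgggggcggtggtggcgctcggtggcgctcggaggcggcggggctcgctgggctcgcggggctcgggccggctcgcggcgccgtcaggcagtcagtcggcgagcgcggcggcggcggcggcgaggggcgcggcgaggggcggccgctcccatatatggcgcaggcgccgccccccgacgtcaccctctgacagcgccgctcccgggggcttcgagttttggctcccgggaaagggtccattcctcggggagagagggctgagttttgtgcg
The Runx1 distal window is chr16:92826025-92826324 and the proximal one chr16:92697280-92697579, both on the minus strand. The Runx2 window is chr17:44814578-44814877 on the minus strand and the Runx3 window chr4:135120395-135120694 on the plus strand. The first start of Ebf1 lies in chr11:44617850-44618149 on the plus strand and the Ebf3 start in chr7:137314396-137314695 on the minus strand.

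All 3 distal Runx promoters held the same tandem pair of RUNX cores, ACCACAGAACCACA. It began 28 bases after the start in Runx1, 23 bases after it in Runx2 and 134 bases before it in Runx3. Of 32851 promoter windows of the same length, 4 held this 14-base string on either strand (0.0122%). The other one belongs to Gm16225, on the opposite strand to Runx3, and its window overlaps that of Runx3. The string was chosen after the sequences had been seen. At least 1 RUNX core, on either strand, lay in 16.8% of all windows and 2 or more, the tandem pair included, in 1.81%. Neither the proximal promoters of Runx1 and Runx3 nor the Ebf3 promoter held a core, and these 3 were rich in CG dinucleotides, with 35, 45 and 46 against a median of 7 over all windows. The first start of Ebf1 had 1 core, 12 bases before the start. The EBF palindrome TCCCNNGGGA, present in 0.904% of all windows, was in none of these promoters. These matches are descriptions of the letters in the windows.

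The lists differ in length, and that bears on every covered length. H3K27me3 peaks covered 13.8 and 30.5 Mb in 236L and 236R, against 45.4 and 110.3 Mb in 159-1 and 1014. H3K4me2 covered 76.1 and 73.7 Mb against 85.2 and 87.6 Mb, and H3K4me1 119.8 and 109.2 Mb against 118.8 and 134.6 Mb. Sequencing depth is unknown here, because only peaks, not read counts, are given. Line 236L also stood apart from the other 3 lines in cell type markers. Of 10 macrophage markers, all 10 had at least 1 kb of H3K4me1 in 236L, against 6 in 236R and 7 in each control line, and their summed cover was 180.1 kb in 236L and 30.8 kb in 236R, against 36.5 and 40.3 kb in 159-1 and 1014. The macrophage receptor gene Adgre1 carried the mark in 236L and was at 0 in the other lines. The marker C1qa went the other way, with 13.8 and 10.9 kb of H3K4me1 in 236L and 236R, against 16.9 and 19.2 kb in 159-1 and 1014. Of 8 neuroendocrine markers, which define this cancer, 6 had H3K27me3 in 236L, with 22.3 kb in sum, against 0 kb in 236R, and 0 and 0.613 kb in 159-1 and 1014. All 8 carried H3K4me2 in each line. The groups also differed in 4 genes of chromosome Y (Uty, Ddx3y, Eif2s3y and Kdm5d), which had no H3K4me2 in either mutant line and had it in both control lines. Genotype and sex chromosomes cannot be told apart in these 4 lines. Kdm6a itself had 6.01 and 4.66 kb of H3K4me2 in 236L and 236R, against 3.10 and 4.38 kb in 159-1 and 1014, and a peak there does not check the mutation.

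A gene was called where both lines of a genotype lay at least 2 kb above, or at least 2 kb below, both lines of the other. By this rule H3K4me1 was higher in both mutant lines at Runx2 and Ebf1 and lower at Ebf2, that is 2 and 1 of the 6 genes, beside 5.3% and 7.44% of all genes. H3K4me2 was higher at Runx2 and Ebf3 and lower at Ebf2, again 2 and 1 of 6, beside 1.36% and 6.37% of all genes. H3K27me3 was lower at 4 of 6 genes, Runx1, Runx2, Runx3 and Ebf3, beside 6.43% of all genes, and higher at 0 of 6, beside 0.425%. Since these values chose the genes, nothing is read from the counts. H3K27me3 was also called with windows of 2.5 kb around the gene ends alone and a separation of 1 kb. Lower H3K27me3 was then called at 0 of the 6, beside 4.75% of all genes. Those windows leave out the Ebf3 start and the proximal Runx1 and Runx3 starts, so they do not describe these promoters. The median difference between mutant and control means over the 6 genes was 6.72 kb for H3K4me1, 3.79 kb for H3K4me2 and -26.8 kb for H3K27me3. All protein-coding genes had medians of 0.203, 0 and 0 kb. The windows of the 6 genes ran from 77.35 kb at Runx3 to 410 kb at Ebf1. A longer window can hold more covered kb, and neither the medians nor the shares of genes called were matched for window length. All 6 genes also belong to the 1666 genes with at least 5 kb of H3K27me3 in both control lines. Among those 1666 genes, H3K27me3 was lower in both mutant lines at 65.5%, H3K4me2 higher at 11.8% and H3K4me1 higher at 15.2%, and the first of these shares is favoured by choosing genes with high control cover.

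**Figure D1:**
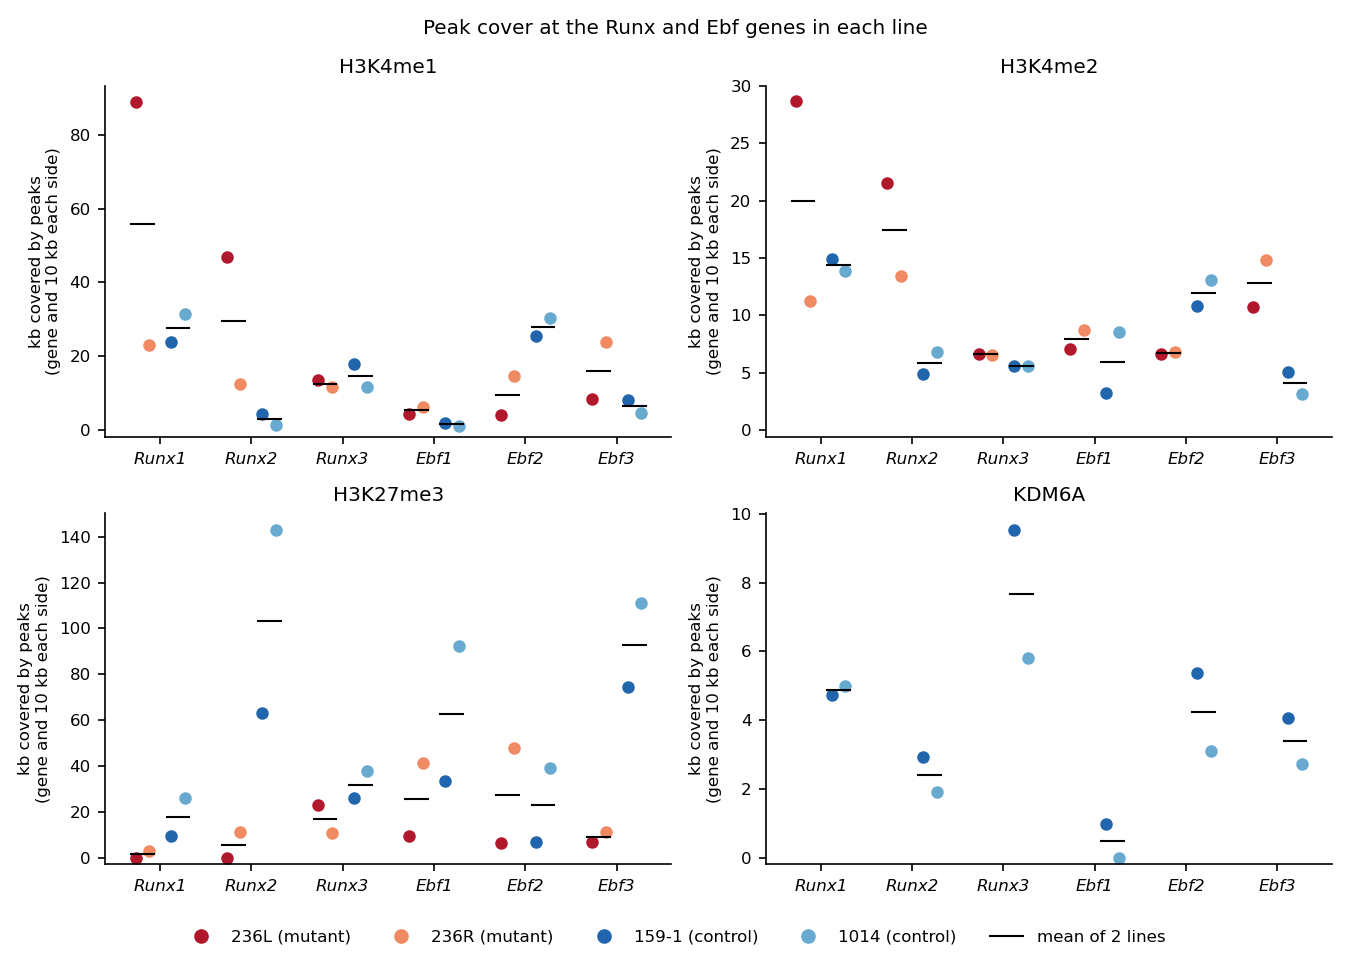
Covered length in kb (vertical axis) of the window of each gene (horizontal axis) by H3K4me1, H3K4me2, H3K27me3 and KDM6A peaks, with 1 point per line, mutant lines in red to the left of control lines in blue, and a bar at the mean of each pair of lines. H3K27me3 at Runx2 lies at 0 and 10.97 kb in the mutant lines, against 63.2 and 143 kb in the control lines, and KDM6A has control lines only.

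Runx1, the blood stem cell regulator, spans chr16:92601466-92826074 and had the largest share of its window under H3K4me1 in 236L among the 6 genes, at 36.3%. H3K4me1 covered 88.8 and 22.9 kb in 236L and 236R, against 24.0 and 31.4 kb in 159-1 and 1014. H3K4me2 covered 28.7 and 11.2 kb in 236L and 236R, against 14.9 and 13.9 kb in the control lines. For both marks 236L alone stood above the control lines and 236R stood below both of them, so the groups overlapped. Without 236R both marks would be called higher. Of 29 merged H3K4me1 sites along the window, 16 were found in 236L alone and 7 in all 4 lines. At these values the macrophage markers were high in 236L as given above, and their part in the Runx1 cover was not tested.

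The distal start of Runx1 carried H3K4me2 in 1 line. Within 2.5 kb of it H3K4me2 covered 2.75 kb in 236L, against 0 kb in 236R and in both control lines, and H3K4me1 covered 4.10 kb in 236L and 0 kb elsewhere. The proximal start, 128.7 kb downstream, was marked in every line, with 5.00 and 4.55 kb of H3K4me2 in 236L and 236R, against 4.59 and 4.62 kb in 159-1 and 1014. In 236L the peak over it spread to 11.3 kb, against 4.86 kb in 236R, and 4.96 and 5.19 kb in the control lines. The CG-rich proximal promoter was thus covered in all 4 lines and the distal promoter, which holds the tandem cores, in 236L.

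H3K27me3 at Runx1 covered 0 and 2.75 kb in 236L and 236R, against 9.37 and 25.8 kb in 159-1 and 1014. The groups did not overlap, with a gap of 6.62 kb. Apart from 1 peak of 1014 farther downstream, the mark lay between the starts and around the proximal one. Within 2.5 kb of the proximal start it covered 0 and 1.81 kb in the mutant lines, against 2.25 and 3.77 kb in the control lines, and within 2.5 kb of the distal start it was 0 kb in all 4. The call was lost at equal covered length, that is with each list cut by its own q ranks to the shortest list of the mark, at the gene ends, and in the peaks with q of 0.001 or less, and the difference of -16.2 kb was -7.99 kb without 1014 and -24.4 kb without 159-1. H3K4me2 of both control lines and neither mutant line summed to 3.57 kb, of which 50.0% lay under KDM6A peaks of a control line, beside 32.6% of such bases over the whole genome. Without 236L the H3K4me2 call at Runx1 became lower, since 236R had 11.2 kb against 13.9 kb or more.

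Runx2, the bone regulator, spans chr17:44495987-44814797 and had more of both H3K4 marks and less H3K27me3 in both mutant lines. H3K4me1 covered 46.8 and 12.5 kb in 236L and 236R, against 4.28 and 1.44 kb in 159-1 and 1014, a mean of 29.6 ± 24.2 against 2.86 ± 2.01 kb (SD, n = 2 each). H3K4me2 covered 21.6 and 13.4 kb, against 4.90 and 6.84 kb, a mean of 17.5 ± 5.77 against 5.87 ± 1.37 kb. H3K27me3 covered 0 and 10.97 kb, against 63.2 and 143 kb. The groups did not overlap in any of these marks, with gaps of 8.20, 6.57 and 52.2 kb. The 3 calls also held with 236L left out and at equal covered length, but their sizes moved. Without 236L the difference between genotypes was 9.62 kb for H3K4me1 and 7.54 kb for H3K4me2, against 26.8 and 11.6 kb with both mutant lines. The H3K27me3 difference of -97.6 kb became -57.7 kb without 1014, -14.2 kb with peaks of q up to 0.001 and -11.5 kb at equal covered length. All 3 calls were lost with windows of 2.5 kb around the gene ends and a separation of 1 kb. Of the 6 osteoblast and cartilage markers, H3K4me2 summed to 21.6 and 26.3 kb in 236L and 236R, against 17.4 and 15.3 kb in 159-1 and 1014. Ibsp was at 0 in all 4 lines. Bglap went the other way from the sum, with 1.71 and 2.63 kb against 4.11 and 3.41 kb. The part of these markers in the Runx2 values was not tested.

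The mutant lines reached these lengths at different places. Of 31 merged H3K4me1 sites at Runx2, 23 were in 236L alone, 3 in 236R alone and 1 in all 4 lines. H3K4me2 had 10 of 19 sites in 236L alone, 2 in 236R alone, 1 in both mutant lines alone and 2 in all 4. The distal start, with its tandem cores, had 3.16 and 0 kb of H3K4me2 in 236L and 236R, against 0.571 and 0.911 kb in 159-1 and 1014, so the mutant lines lay on either side of the control lines. KDM6A and H3K27me3 were at 0 kb there in each line mapped.

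The promoter table used here holds no proximal start of Runx2, so the place of that start could not be checked. A site marked in all 4 lines lay about 79.1 kb downstream of the distal start (chr17:44732434-44738601), where the table holds no start. H3K4me2 covered 5.76 and 4.71 kb of it in 236L and 236R, against 2.43 and 2.37 kb in 159-1 and 1014. H3K27me3 covered 0 and 3.40 kb, against 4.98 and 6.17 kb, and KDM6A covered 1.44 and 0.699 kb in 159-1 and 1014. The peak was thus wider in both mutant lines, in a place that held H3K4me2, H3K27me3 and KDM6A in both control lines. Over the whole window, 2.73 kb of H3K4me2 lay in both mutant lines and neither control line. H3K27me3 of a control line held 97.0% of it, beside 38.2% of such bases over the whole genome. H3K27me3 covered 18.6% and 42.2% of the whole Runx2 window in 159-1 and 1014. Another site in all 4 lines, 37.1 kb downstream, belongs to the start of Supt3, an opposite-strand gene whose start lies 37.5 kb from that of Runx2, and its H3K4me2 covered 2.16 and 2.14 kb against 1.90 and 2.17 kb.

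Runx3, the T cell and sensory neuron regulator, spans chr4:135120645-135177990 and differed little in the H3K4 marks. H3K4me1 covered 13.4 and 11.6 kb in 236L and 236R, against 18.0 and 11.6 kb in 159-1 and 1014, and the groups overlapped. Without 1014, H3K4me1 would be called lower, since 159-1 alone is at 18.0 kb. H3K4me2 covered 6.61 and 6.58 kb, against 5.63 and 5.57 kb, so both mutant lines were above both control lines by 0.953 kb, under the 2 kb needed for a call. A separation upward by any amount was seen in 13.9% of all genes for H3K4me2. H3K27me3 covered 23.0 and 10.7 kb, against 25.8 and 37.8 kb, with a gap of 2.82 kb that was lost at equal covered length, with a separation of 5 kb, with windows of 50 kb and at the gene ends. Its difference of -14.97 kb was -8.84 kb without 236R and -8.95 kb without 1014.

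The proximal start of Runx3, 31.9 kb downstream of the distal one, carried H3K4me2 and H3K27me3 together in each line. H3K4me2 covered 3.22 and 2.02 kb within 2.5 kb of it in 236L and 236R, against 1.87 and 2.24 kb in 159-1 and 1014, and H3K27me3 covered 4.22 and 1.41 kb, against 5.00 and 5.00 kb. In the control lines this start lay inside the widest H3K27me3 peak of the gene, 21.1 kb wide in 159-1 and 26.0 kb in 1014, while the widest peaks in 236L and 236R were 5.83 and 3.73 kb. The distal start had 0.433 kb of H3K4me2 in 236L and 0 kb in 236R and in both control lines. At all 3 distal Runx starts, 236L was the line with the most H3K4me2 and 236R had 0 kb.

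**Figure D2:**
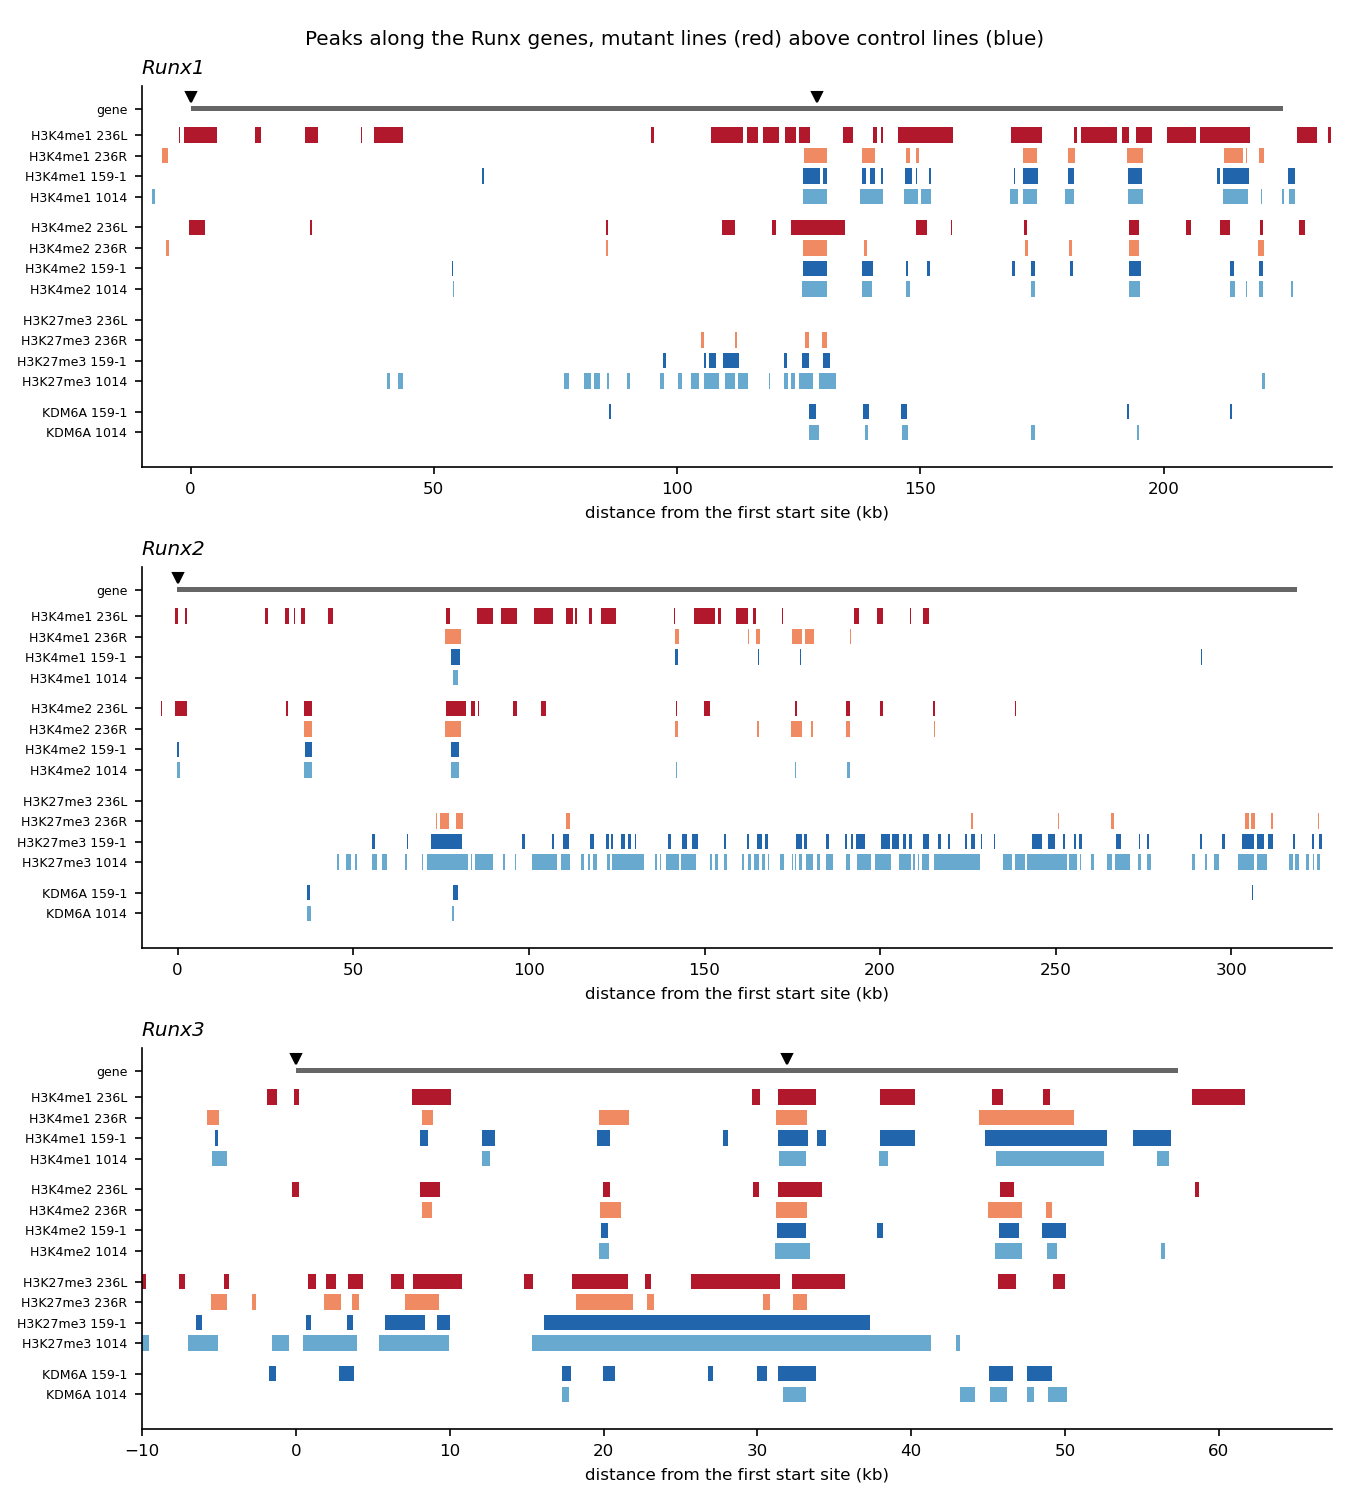
Peaks of each line along the 3 Runx genes, against the distance in kb from the distal start (triangles mark the starts in the promoter table, the grey bar the gene), with mutant lines in red above control lines in blue and colours paired by line. Runx1 H3K4me2 at 0 kb is present in 236L only, and H3K27me3 at Runx2, which covers 18.6% and 42.2% of the window in 159-1 and 1014, forms 11 peaks in 236R and none in 236L.

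Ebf1, the B cell regulator, spans chr11:44618100-45008096. Its widest H3K4me2 peak lay over the start in both mutant lines, and at a site 214.7 kb downstream in both control lines. H3K4me1 covered 4.43 and 6.25 kb in 236L and 236R, against 2.03 and 1.12 kb in 159-1 and 1014, with a gap of 2.403 kb, which was lost with the gene body alone and with a separation of 5 kb. H3K4me2 over the whole window covered 7.08 and 8.72 kb, against 3.26 and 8.59 kb, and the groups overlapped. Without the library labelled 1014, or at equal covered length, it was called higher. Of 12 merged H3K4me2 sites, 6 were in 1 control line alone. Within 2.5 kb of the first start the groups stood apart, with 4.09 and 3.99 kb of H3K4me2 in 236L and 236R, against 0.771 and 0.635 kb in 159-1 and 1014. At the second start, 2.13 kb downstream, it covered 2.81 and 2.87 kb, against 0.322 and 0.282 kb.

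The gain at the Ebf1 start lay on H3K27me3 of the control lines, and all 4 lines had H3K27me3 near that start. Of the merged H3K4me2 site over the start, 4.14 kb long, H3K27me3 covered 3.17 and 2.77 kb in 236L and 236R. It covered 3.33 and 4.14 kb of the site in 159-1 and 1014. H3K27me3 covered 3.62 and 3.63 kb within 2.5 kb of the first start in 236L and 236R, against 4.19 and 5.00 kb in 159-1 and 1014. Over the window, H3K4me2 of both mutant lines and neither control line summed to 3.42 kb, of which 100% fell on control H3K27me3. H3K27me3 covered 8.1% and 22.5% of the whole Ebf1 window in 159-1 and 1014. KDM6A covered 0 kb at both starts in both control lines, and in the window 0.988 kb in 159-1 and 0 kb in 1014. H3K27me3 over the window covered 9.46 and 41.3 kb, against 33.3 and 92.1 kb, and the groups overlapped. Left out singly, either 236R or 159-1 turned this overlap into a call of less H3K27me3. Of the 6 B cell markers, H3K4me1 summed to 30.7 and 25.8 kb in the mutant lines, against 16.0 and 18.1 kb in the control lines, with Ms4a1 at 0 in 236R, 159-1 and 1014. Pax5 held 19.1 kb of the sum in 236R. The 5 markers other than Pax5 summed to 21.4 and 6.66 kb in 236L and 236R, against 9.11 and 13.5 kb in 159-1 and 1014, so 236R was then below both control lines. The markers' part in the Ebf1 values was not tested.

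Ebf2, the brown fat and neuron regulator, spans chr14:67233292-67430952 and was the gene of the 6 with less of both H3K4 marks. H3K4me1 covered 4.19 and 14.5 kb in 236L and 236R, against 25.5 and 30.3 kb in 159-1 and 1014, a mean of 9.36 ± 7.31 against 27.9 ± 3.45 kb (SD, n = 2 each). H3K4me2 covered 6.66 and 6.79 kb, against 10.8 and 13.1 kb, a mean of 6.72 ± 0.0969 against 12.0 ± 1.63 kb. The groups did not overlap, with gaps of 10.9 and 4.01 kb. The H3K4me1 call was lost with peaks of q up to 0.001 and the H3K4me2 call with a separation of 5 kb, and both with windows around the gene ends and a separation of 1 kb, where the differences were 0.393 and 0.383 kb. Of the 8 neuroendocrine markers, H3K4me1 summed to 23.6 and 83.4 kb in 236L and 236R, against 67.7 and 79.6 kb in the control lines, and H3K4me2 summed to 36.7 and 64.4 kb, against 72 and 79.5 kb. Line 236R was thus above both control lines in the one mark and below both in the other, and the part of these markers in the Ebf2 values was not tested.

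The lower cover of Ebf2 lay in the body of the gene. At its lower-coordinate end, H3K4me2 covered 3.49 and 2.99 kb within 2.5 kb in 236L and 236R, against 2.76 and 2.95 kb in 159-1 and 1014, and H3K4me1 covered 3.58 and 3.27 kb, against 3.06 and 3.001 kb. Of 17 merged H3K4me2 sites, 5 were found in both control lines and neither mutant line, at 45.1, 50.2, 68.6, 139.1 and 145.4 kb from that end. At the site 50.2 kb away (chr14:67282929-67284129) H3K4me2 was 0 kb in both mutant lines, against 1.09 and 1.20 kb in 159-1 and 1014. KDM6A covered 0.583 and 0.397 kb of it in 159-1 and 1014. In 236L the single H3K4me1 site of the window was that at the gene end, 4.19 kb wide, while 236R kept H3K4me1 at sites in the body.

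H3K27me3 at Ebf2 did not follow genotype. It covered 6.46 and 47.8 kb in 236L and 236R, against 6.71 and 39.2 kb in 159-1 and 1014, so each group had a line near 7 kb and a line near 40 kb or more. Without 236L it would be called higher. H3K4me2 of both control lines and neither mutant line summed to 4.42 kb, of which 1.02% fell on control H3K27me3 and 23.9% under control KDM6A, beside 0.881% and 32.6% of such bases over the whole genome.

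Ebf3, the neuronal family member, spans chr7:137193671-137322805 and had more H3K4me2 and less H3K27me3 in both mutant lines. H3K4me2 covered 10.7 and 14.9 kb in 236L and 236R, against 5.03 and 3.14 kb in 159-1 and 1014, a mean of 12.8 ± 2.93 against 4.08 ± 1.34 kb (SD, n = 2 each). H3K27me3 covered 6.94 and 11.1 kb, against 74.5 and 110.9 kb, a mean of 9.01 ± 2.93 against 92.7 ± 25.7 kb. Neither mark overlapped between the groups, with gaps of 5.69 and 63.4 kb, and both calls held with 236L left out and at equal covered length. The H3K27me3 difference of -83.7 kb was -46.5 kb at equal covered length. Both calls were lost with windows around the gene ends and a separation of 1 kb. Those windows leave out the Ebf3 start, so the lost calls do not describe it. Within 2.5 kb of that start the groups stood apart in both marks. H3K4me2 covered 3.676 and 3.356 kb there in 236L and 236R, against 2.325 and 2.172 kb in 159-1 and 1014, and H3K27me3 is given below. H3K4me1 covered 8.38 and 23.8 kb, against 8.22 and 4.63 kb, a separation of 0.151 kb, and 25.1% of all genes were separated upward in H3K4me1 by any amount. Without 236L, without 159-1 or with peaks of q up to 0.001 the H3K4me1 of Ebf3 was called higher.

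The CG-rich start of Ebf3 had H3K4me2 in every line, and the peak over it was wider in the mutant lines. The merged site (chr7:137309140-137315720) was covered over 6.42 and 4.97 kb in 236L and 236R, against 2.84 and 2.17 kb in 159-1 and 1014. KDM6A covered 2.25 and 2.71 kb of it in 159-1 and 1014. In both control lines the start lay in the widest H3K27me3 peak of the gene, with at least 25.7 kb of it inside the window in 159-1 and 42.7 kb in 1014. The widest in 236L and 236R were 2.75 and 5.05 kb. Within 2.5 kb of the start H3K27me3 covered 1.00 and 2.11 kb in 236L and 236R, against 5.00 and 5.00 kb in the control lines. A further site 3.82 kb upstream was marked over 2.48 kb in 236R and 0 kb in the other 3 lines. Of 3.04 kb of H3K4me2 in both mutant lines and neither control line, 89.3% fell on control H3K27me3 and 31.6% under control KDM6A. The shares of such bases over the whole genome were 38.2% and 3.97%. H3K27me3 covered 49.96% and 74.35% of the whole Ebf3 window in 159-1 and 1014.

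**Figure D3:**
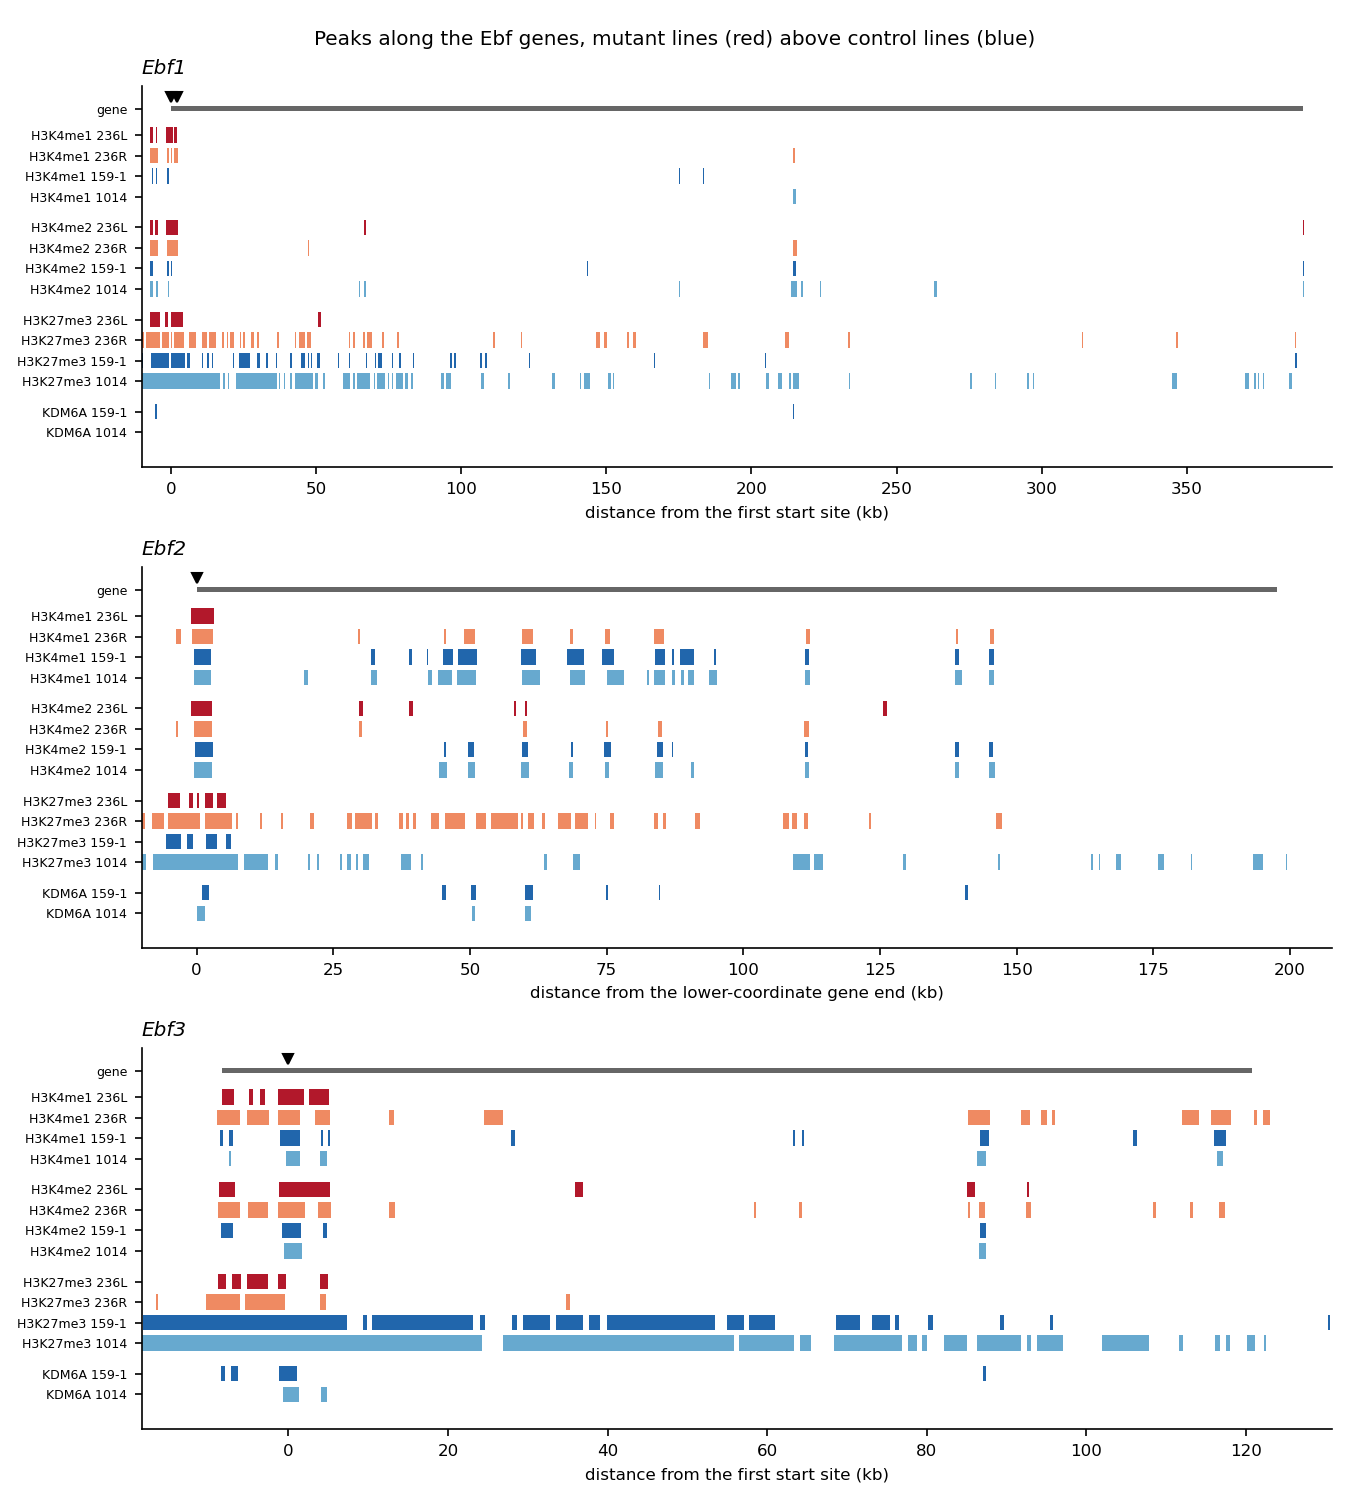
Peaks of each line along the 3 Ebf genes, against the distance in kb from the first start (for Ebf2 from the lower-coordinate gene end), with mutant lines in red above control lines in blue. The H3K4me2 sites of Ebf2 at 50.2 and 139.1 kb are present in the control lines only, and H3K27me3 at Ebf3 forms 5 peaks in each mutant line, against 18 in 159-1 and 17 in 1014.

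Over the 9 starts, H3K4me2 of at least 2 kb within 2.5 kb of the start was found in both mutant lines at the Runx1 and Runx3 proximal starts, both Ebf1 starts, the Ebf2 end and the Ebf3 start, which is 6 of the 9. The Ebf1 starts lie 2.13 kb apart, so their windows overlap and hold the same H3K4me2 site. The Ebf2 end is not a start of the promoter table, and the 9 leave out the proximal start of Runx2, which that table does not hold. In the control lines the Ebf1 starts were under 1 kb and the Runx3 proximal start had 1.87 kb in 159-1. By the same rule, 35.5% of all 32851 promoter-table starts had at least 2 kb of H3K4me2 in both mutant lines and 35.8% in both control lines. H3K27me3 of at least 1 kb, in 1 line at a time, was found at 7.40 and 6.81% of these starts in 236L and 236R, against 8.39 and 14.3% in 159-1 and 1014.

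**Figure D4:**
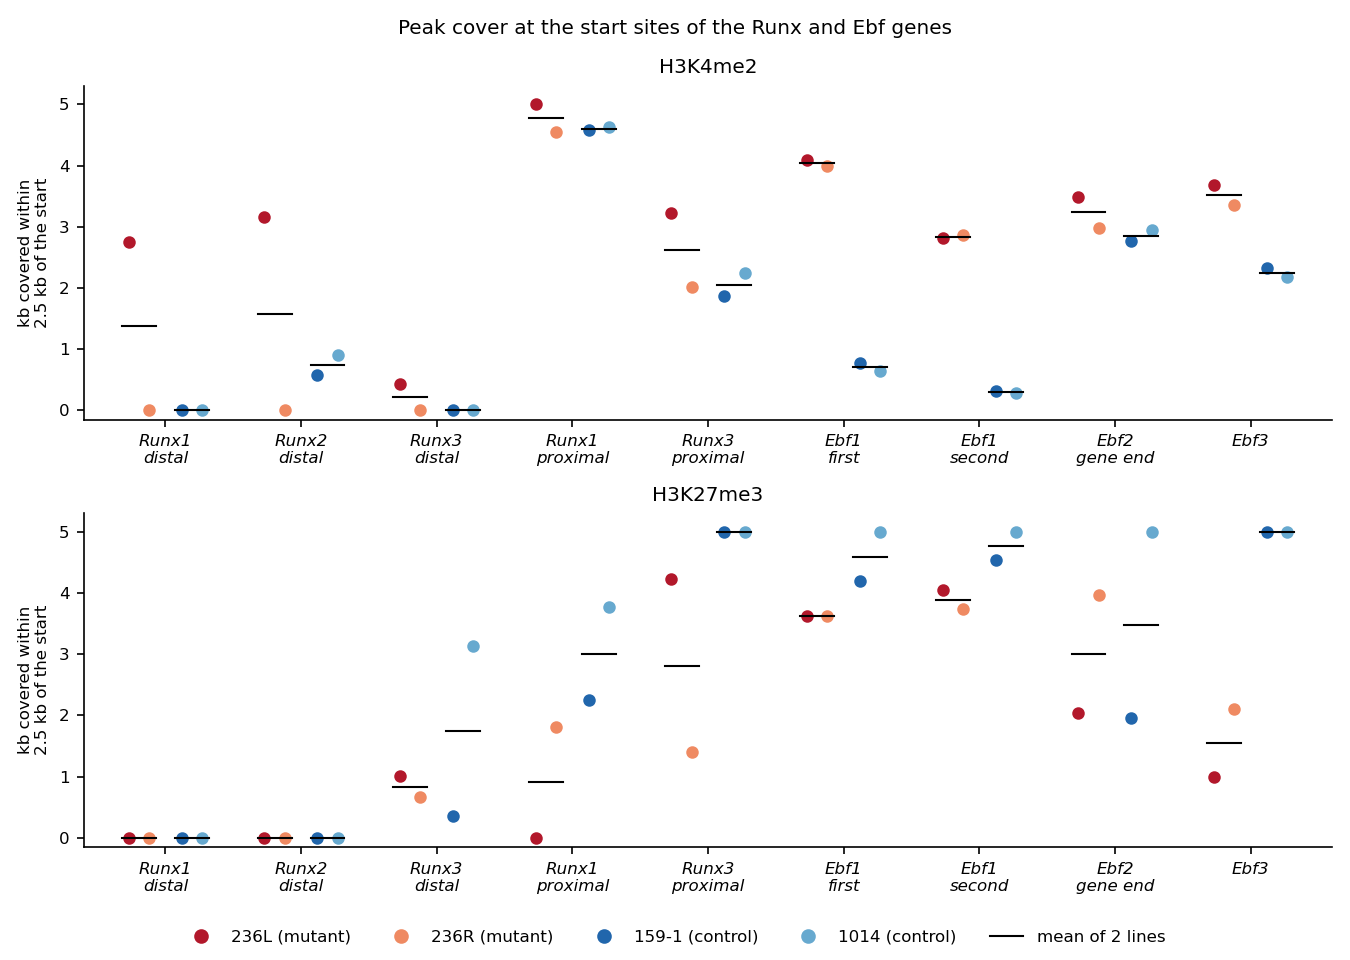
Covered length in kb within 2.5 kb of each start (vertical axis) for H3K4me2 and H3K27me3, with 1 point per line, mutant lines in red to the left of control lines in blue, and a bar at the mean of each pair. At the first start of Ebf1 the mutant lines have 4.09 and 3.99 kb of H3K4me2, against 0.771 and 0.635 kb in the control lines, while the H3K27me3 points of all 4 lines lie at 3.62 kb or above.

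Each gene was also ranked among all 21883 protein-coding genes of its own list by the share of its window covered, where the percentile is the percent of genes with a smaller share. The lists differ in length, so these ranks describe each list and show no change between lists. For H3K27me3 Ebf3 stood at the 90.9th and 90.9th percentiles in 236L and 236R, against the 98.5th and 98.1st in 159-1 and 1014. Runx2 had 0 kb in 236L and stood at the 85.8th percentile in 236R, against the 94.3rd and 94.5th in the control lines, and Runx1 had 0 kb in 236L and the 80.3rd percentile in 236R, against the 86.5th and 85.1st. Runx3, which was called lower by length, was at the 98.8th and 94.3rd percentiles in 236L and 236R, against the 96.9th and 95.4th, so its ranks overlapped between the groups. The ranks of Ebf1 and Ebf2 overlapped too. Ebf1 had percentiles of 86.9 and 92.55 in 236L and 236R, against 90.2 and 90.3 in 159-1 and 1014. Ebf2 had 88.4 and 96.2, against 85.5 and 88.7. For H3K4me2 the percentiles of the mutant lines were above those of the control lines at Runx2, with 49.5 and 38.6, against 26.3 and 28.4. The same order held at Ebf3, with 53.2 and 66.7, against 35.3 and 28.8, and by less at Runx3, with 58.5 and 61.3, against 53.2 and 52.4. Ebf2 had the opposite order, with percentiles of 33.4 and 34.0 in 236L and 236R, against 43.0 and 46.9 in 159-1 and 1014.

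KDM6A had at least 1 kb in both control lines at 5 of the 6 genes, beside 40.9% of all genes. At Runx2 this rested on the peaks over the start of Supt3. Without them, an alternative chosen after seeing the data, Runx2 had 1.89 kb in 159-1 and 0.699 kb in 1014. The count was then 4 of 6, beside 40.9% of all genes. KDM6A cover in 159-1 and 1014 was 4.75 and 5.00 kb at Runx1, 2.91 and 1.92 kb at Runx2, and 9.54 and 5.80 kb at Runx3. At the Ebf genes it was 0.988 and 0 kb at Ebf1, 5.37 and 3.09 kb at Ebf2 and 4.06 and 2.71 kb at Ebf3. As a share of the window, Runx3 had the most in each line, with 12.3% in 159-1 and 7.49% in 1014, and Ebf1 the least. By this share, the percentiles among all genes in 159-1 and 1014 were 92.6 and 86.7 at Runx3. They were 38.09 and 39.45 at Runx2, and 32.3 and 0 at Ebf1. Runx1, Ebf2 and Ebf3 lay between 50.3 and 59.6. With peaks of q up to 0.001, Runx3 and Ebf2 alone had 1 kb in both lines, beside 26.7% of all genes. Over the 6 genes KDM6A formed 36 merged sites, of which 13 were in both lines. By at least 1 bp, 27 of the 36 touched H3K4me2 of a control line and 19 touched H3K27me3 of a control line. H3K4me2 touched 15 of the 36 in both mutant lines and 14 in neither of them, and Runx1 with 4, Runx3 with 5 and Ebf2 with 3 held most of these 14 sites. The 14 do not measure a loss, since the 5 at Runx3 touched no H3K4me2 of a control line either. At Runx3, 4 of 10 KDM6A sites touched H3K4me2 of a control line. Shares over all KDM6A sites of the genome were not computed, so nothing is read from these counts.

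Genes that work with the families were described by the same rule. Of 16 partner genes, H3K4me1 was lower in both mutant lines at 4, beside 7.44% of all genes, and higher at 0, beside 5.3%. H3K4me2 was lower at 6, beside 6.37%, and higher at 0, beside 1.36%. H3K27me3 was lower at 4, beside 6.43%, and higher at 0, beside 0.425%. The list was chosen with earlier results known, so nothing is read from these counts. Cbfa2t3 encodes a corepressor whose relative Runx1t1 is known from its fusion to RUNX1 in leukaemia. It had 3.10 and 7.71 kb of H3K4me2 in 236L and 236R, against 29.9 and 19.0 kb in 159-1 and 1014, and its H3K4me1 covered 3.94 and 33.4 kb, against 58.1 and 68.5 kb. For H3K4me2, Runx1t1 had 10.8 and 18.8 kb, against 26.8 and 35.6 kb. The histone deacetylase gene Hdac4 had 11.5 and 4.78 kb, against 18.0 and 18.0 kb, and the corepressor gene Tle1 8.20 and 4.64 kb, against 13.5 and 14.6 kb. Zfp423, whose protein binds EBF factors, had 9.53 and 6.20 kb of H3K4me1 in the mutant lines, against 28.3 and 40.7 kb in the control lines. Its H3K27me3 covered 5.00 and 3.35 kb, against 42.7 and 65.3 kb. Both other partners tied to the EBF family, named after their values were seen, also had less H3K27me3. The family member Ebf4 had 7.63 and 2.54 kb, against 13.99 and 74.9 kb, and the EBF-binding Zfp521 had 0.827 and 2.84 kb, against 9.32 and 58.6 kb.

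Known targets of the factors are given with the same shares of all genes, and nothing is read from their counts either. Of 18 RUNX target genes, H3K4me1 was higher at 2 (5.3% of all genes) and lower at 1 (7.44%), H3K4me2 higher at 0 (1.36%) and lower at 0 (6.37%), and H3K27me3 lower at 3 (6.43%). The vitamin D receptor gene Vdr, the RUNX target with the widest gap, had 1.61 and 32.7 kb of H3K27me3 in 236L and 236R, against 47.4 and 49.3 kb in 159-1 and 1014. Its H3K4me1 covered 5.90 and 8.35 kb, against 3.42 and 3.48 kb. Of 16 EBF target genes, beside the same shares, H3K4me1 was higher at 2 and lower at 3, H3K4me2 lower at 2 and higher at 0, and H3K27me3 lower at 3. Pax5, the B cell factor downstream of EBF1, had 23.5 and 4.56 kb of H3K27me3 in the mutant lines, against 105.8 and 153 kb in the control lines. Its H3K4me1 covered 9.28 and 19.1 kb, against 6.90 and 4.57 kb. The B cell kinase gene Blk had 0 and 13.8 kb of H3K27me3, against 32.8 and 61.4 kb. H3K4me1 was lower at the neuronal genes Olfm1, with 3.46 and 10.9 kb against 19.0 and 25.9 kb, and Lmx1a, with 1.34 and 15.99 kb against 22.3 and 29.2 kb.

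Each gene was last compared with all others by the percent of its window covered in the 14 lists, leaving out relatives and overlapping windows, with the Euclidean distance in percentage points. Nearest to Runx1 were Ap5z1 (8.86), Pfkfb3 (8.95) and Ralb (9.19), and nearest to Runx2 were Itgam (7.87), Ddr2 (9.01) and Wdfy4 (9.01). Itgam is 1 of the 10 macrophage markers. Runx3 had no near neighbour, with Rhbg at 20.5, Car15 at 22.7 and Wnt9b at 23.6. Nearest to Ebf1 were Bves (3.24), Dmgdh (4.80) and Gm39653 (4.87). Ebf2 was nearest to Fkbp6 (10.4), Nr5a2 (12.1) and Rasl12 (12.2), and Ebf3 to Oat (12.2), Pax5 (12.5) and Klf15 (13.6). These distances describe covered lengths in 14 lists that share lines and list lengths.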

How the data were processed

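Per the submitters' processing notes, alignment used Bowtie2 2.4.2, peak calling MACS3 3.0.0a7 and the build mm10; the calling threshold is not given in the sources used here. Of 24 samples, 14 have a peak list of their own library and the 10 inputs have none here. For each peak the authors deposited a display score, a fold enrichment (a linear ratio), and a −log10 p-value and −log10 q-value. The lowest −log10 q-value of a list ranged from 1.005 to 1.055 over the 14 lists, so the main covered lengths include weak peaks. H3K4me1 has input libraries of its own and holds both genotypes, per the labels. Only the q-value was used, to filter or rank peaks within a list. Depth is unknown, so no interval is given.

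Peaks of a list on the assembled chromosomes were merged (337 peaks elsewhere were set aside), and the kb covered was taken per gene window (gene body and 10 kb each side, NCBI gene table of GRCm38.p6, 21883 protein-coding genes) with Python 3.11.15, numpy 2.4.6 and pandas 2.3.3, in code tested on simulated peaks. Genes were called by a gap of at least 2 kb between the pairs of lines. With 2 lines against 2, the smallest exact two-sided permutation p is 0.333, so no test was run. Start sites came from the RefSeq promoter table, and for Ebf2 the lower-coordinate gene end was used. The members and gene lists were chosen with earlier results of these data known. All 6 members were named. From the partner and target lists, genes separated by at least 2 kb were named, at most the 4 with the largest gaps per mark, and each member's 3 nearest genes. Alternatives were the gene body alone, 50 kb on each side, gene ends, peaks of q up to 0.001, equal covered length, separations of 1 and 5 kb, and leaving out each line.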

Additional observations from a re-analysis of the deposited data

How the results depend on the processing

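Among the 162 differences of single members under an alternative, 11 changed sign, 2 of them at a called member and 9 at members not called. Both at a called member were at Ebf2 with gene ends and a separation of 1 kb, where the mutant lines were above the control lines by 0.393 kb in H3K4me1 and 0.383 kb in H3K4me2. The differences not called turned at Runx1 without 236L (-4.74 kb of H3K4me1 and -3.14 kb of H3K4me2), at Runx3 without 159-1 (0.941 kb of H3K4me1) and at Ebf1 with the gene body alone or without 159-1 (-0.178 and -0.688 kb of H3K4me2). H3K27me3 at Ebf2 turned with gene ends, with peaks of q up to 0.001, without 236R and without 159-1 (-0.599, -5.53, -16.5 and -12.1 kb). Gene ends with a separation of 1 kb change both the window and the gap, and leave out the Ebf3 start and the proximal Runx1 and Runx3 starts. Of the members, 1 was then called with more H3K4me1, beside 7.37% of all genes, and 0 with less, beside 2.71%. For H3K4me2, 1 was called with more, beside 1.64%, and 0 with less, beside 1.78%. Lower H3K27me3 was called at 0, beside 4.75%. The H3K4me1 gain was called at 1 member with the gene body alone and with a separation of 5 kb, beside 1.29% and 0.635% of all genes. The H3K4me1 loss was called at 0 with peaks of q up to 0.001, beside 5.35%. The H3K4me2 loss was called at 0 members with a separation of 5 kb, beside 1.9% of all genes. At equal covered length H3K27me3 was called lower at 2 members, Runx2 and Ebf3, beside 1.45% of all genes. With peaks of q up to 0.001, 2 members had KDM6A in both lines, beside 26.7% of all genes. Without the peaks over the Supt3 start, chosen after seeing the data, 4 had it, beside 40.9%. The cause was not tested. Leaving out 1 line gave 2 to 3 members with more H3K4me1 and 1 to 2 with less, beside 7.86 to 29.7% and 8.72 to 15.2% of all genes. It gave 2 to 3 with more H3K4me2 and 1 to 2 with less, beside 2.09 to 10.3% and 9.18 to 11.5%. For H3K27me3 it gave 0 to 1 with more and 4 to 5 with less, beside 0.471 to 4.02% and 6.99 to 16.9%. KDM6A was at 5 members, beside 45.1% and 50.4% of all genes.

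Over all genes, the alternatives other than leaving out a line gave 139 to 2809 genes with more H3K4me1 (1160 as reported) and 594 to 2378 with less (1629), 48 to 753 with more H3K4me2 (298) and 389 to 2715 with less (1395), and 10 to 239 with more H3K27me3 (93) and 317 to 2702 with less (1407). KDM6A was found at 4464 to 13628 genes (8953). Leaving out 1 line gave 1721 to 6501 and 1908 to 3336 genes for H3K4me1, 457 to 2251 and 2009 to 2519 for H3K4me2, and 103 to 880 and 1529 to 3698 for H3K27me3. For the 36 KDM6A sites at the 6 members, not over all genes, the share in control H3K4me2 was 60.6% by length, as a mean of the 2 control lists. With the 2 control lists joined, it was 75% by sites sharing 1 bp and 63.9% by sites sharing 50%. No paired analysis was possible because the members get no test and the lines share no numbers that pair them. Unknown depth limits every covered length.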
